A study of Mus musculus with 12 samples.

Results

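The liver response to PPT, a compound that activates oestrogen receptor alpha selectively, was described in MOER mice, which per the labels have that receptor at the cell membrane alone. It rests on 4 of the 12 arrays of the series: 2 from MOER mice given PPT and 2 from MOER mice given oil, chosen by their titles. All mice were ovariectomized C57BL/6 females, 3 months old, and after 1 week of recovery they received daily intraperitoneal injections for 3 days, either 100 µg of PPT or 0.1 mL of oil. Wild type mice and ERKO mice, which lack oestrogen receptor alpha, were given PPT or oil in the same way and are used here for comparison, with 2 arrays in each of their 4 groups. Whole liver RNA of 3 animals was pooled for each array, and the study was done a second time. Nothing in the labels says whether both arrays of a group drew on different animals, so the p-values speak only for the spread between the arrays at hand, which may be technical. How the receptor was held at the membrane, and in which cells, was not given in the sources used here.

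Oestrogen receptor alpha is best known as a nuclear receptor that binds DNA after it binds hormone, and a smaller pool at the plasma membrane starts kinase signalling in the cytoplasm. In liver, oestrogens act on lipid synthesis, on bile acid and steroid metabolism, and on plasma proteins made by hepatocytes. The transcription factors of the SREBP family, which are released from the endoplasmic reticulum when sterols are scarce, drive the genes of cholesterol and fatty acid synthesis, and the cytokine factor STAT3 and the C/EBP factors drive the acute phase genes.

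Each value is a hybridisation intensity of the Affymetrix Mouse Gene 1.0 ST array, on a linear scale, from the authors' deposited table. A change is the difference of log2(intensity + 16) between MOER PPT and MOER oil, positive where PPT was higher, and its error is the standard error of a limma fit over all 12 arrays. A gene was called, and is said below to have risen or fallen, at a Benjamini-Hochberg adjusted p under 0.05 over 19119 probe sets. A group was called dim for a gene when neither array exceeded its own 40th percentile. Where 1 of the groups was dim, the fold is a lower bound set by that percentile.

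The libraries were compared before any gene. The array medians of all 12 lay between 77.5 and 85.26, and replicate arrays correlated at 0.994 or above over the tested probe sets. The exception was ERKO oil, with a correlation of 0.9815 and 162 probe sets more than 2-fold apart. Esr1, the receptor's own gene, gave 117 and 131 in MOER PPT and 126 and 128 in MOER oil arrays, against 347 and 365 in wild type oil and 126 and 118 in ERKO oil. The level in MOER thus lay near that in ERKO, and which part of the gene the probe set reads was not given in the sources used here. Transcripts of the exocrine pancreas were, as a summed list, high in both MOER oil arrays and in no other group, and are described apart, at the end. H2-Ea, an MHC class II gene that C57BL/6 mice are known not to express, gave 2656 and 2603 in MOER PPT and 5605 and 5622 in MOER oil arrays, against 15.4 to 23.4 in the oil arrays of the other genotypes. All 4 MOER arrays thus read this gene, which goes against the strain label that all groups share. Whether MOER differs from the other groups in genetic background was not tested.

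PPT changed 890 probe sets in MOER liver, of which 449 rose (2.35% of the 19119 tested) and 441 fell (2.31%). In terms of genes, each by its brightest probe set, 353 of 13987 rose (2.52%) and 335 fell (2.4%), and 56 and 67 of these changed at least 2-fold. At an unadjusted p under 0.05, 2879 probe sets differed. Without 1 of the 4 MOER arrays the rises numbered 195 to 233 and the falls 209 to 272, and without either ERKO oil array 846 rose and 826 fell. The median change over all 13987 genes was 0.0022. The gene lists below were set beside those shares. Lists and members were chosen with earlier results of these data known, so the order of lists by share called is descriptive and tests nothing. Of 45 lists, those of sterol and fatty acid synthesis, antigen presentation and pancreatic acinar genes had the largest shares of genes that fell, and the acute phase and interferon-induced lists the largest shares of genes that rose. Some acinar genes passed the filter only through the MOER oil arrays, so the acinar share was in part fixed in advance. In the cell cycle list 0 of 16 tested genes were called by limma, and in the urea cycle and amino acid breakdown list 0 of 13, with median changes of -0.02 and -0.04, and 2 and 0 genes had an unadjusted p under 0.05.

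**Figure D1:**
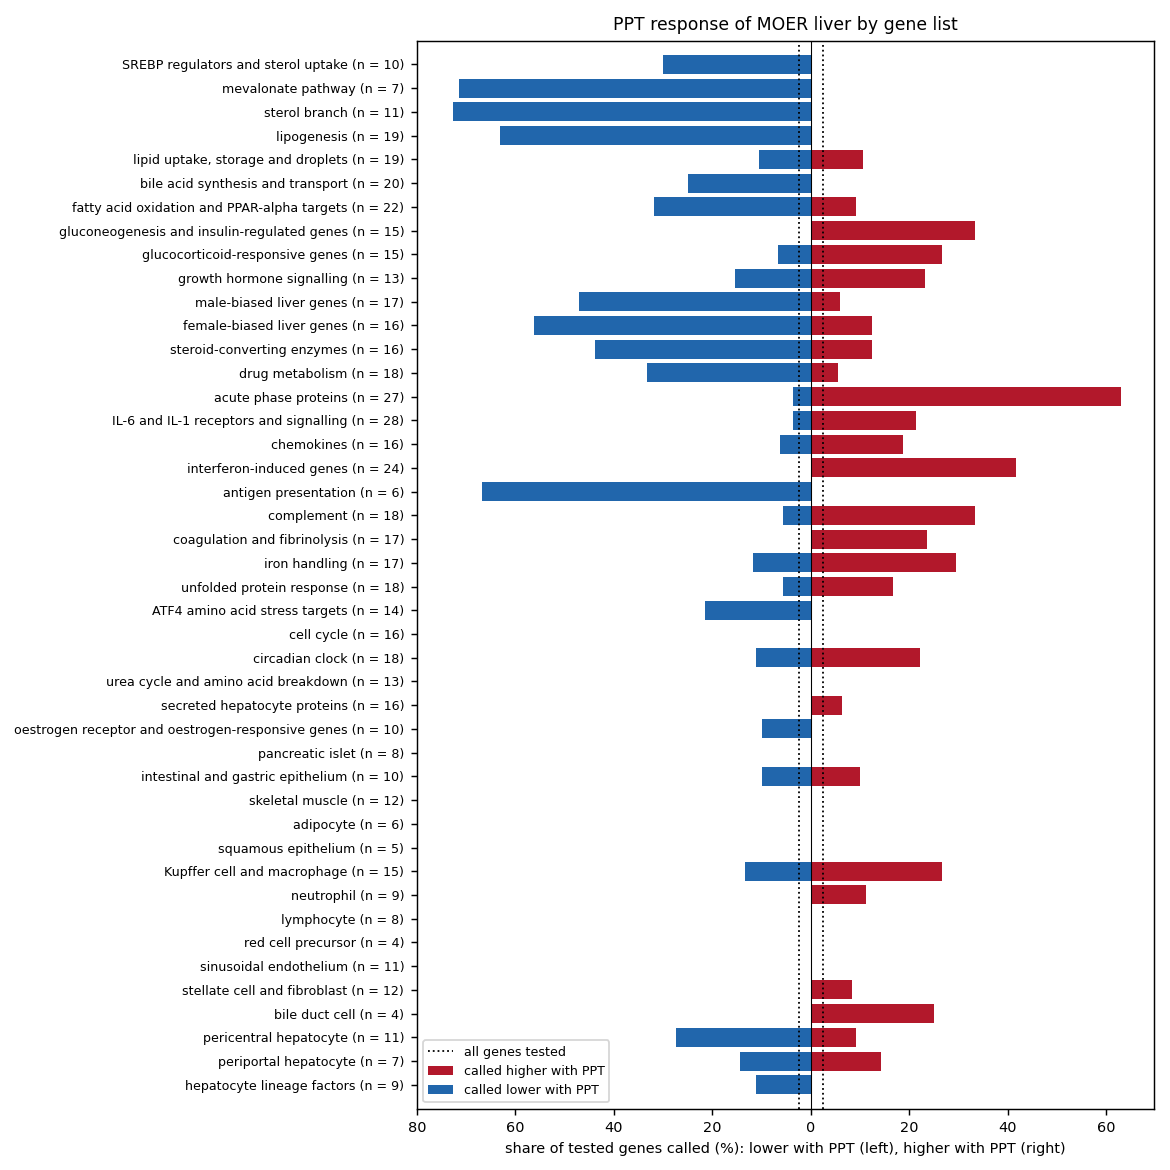
Share of tested genes called in the PPT response of MOER liver, by gene list (rows, with the number of genes tested). Bars to the right give the percent called higher with PPT and bars to the left the percent called lower, with a list at 0 left blank. Dotted lines mark the shares over all 13987 genes, 2.52% higher and 2.4% lower. The lists were chosen with earlier results of these data known. The mevalonate, sterol branch and lipogenesis rows extend to the left alone, and the acute phase row mostly to the right.

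Genes of cholesterol synthesis were lower in MOER liver after PPT. Of 10 SREBP regulators and sterol uptake genes, 0 rose and 3 fell, with a median change of -0.21. Srebf1, which encodes SREBP-1, gave 269 and 231 in the PPT arrays, against 534 and 522 in the oil arrays, a fall of 1.04 on the log2 scale (limma, adjusted p = 0.000403). Insig1, whose product holds SREBP back in that compartment and which is itself an SREBP target, gave 4446 and 4180.2 in the PPT arrays, against 6677 and 6529.8 in the oil arrays, with a change of -0.61 ± 0.10 (adjusted p = 0.00565). Mid1ip1, an activator of acetyl-CoA carboxylase, changed by -0.75 ± 0.09. For all 3 genes both PPT arrays lay below all 4 oil arrays of the other genotypes. Of all 441 probe sets that fell, 73.9% had this position, and of all 449 that rose, 76.2% had PPT arrays above those 4. Called probe sets were chosen for a gap between MOER PPT and oil, so nothing is read from such positions, here or below. Srebf2 and Scap, which encode SREBP-2 and its escort protein, gave -0.22 and -0.07 and did not pass (adjusted p = 0.37 and 0.849).

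The mevalonate pathway makes farnesyl diphosphate out of acetyl-CoA. Of its 7 tested genes 5 fell and 0 rose, with a median of -0.86. Hmgcs1, HMG-CoA synthase and the first committed enzyme, gave 2534 and 2699 in the PPT arrays, against 4987 and 4911 in the oil arrays (-0.92 ± 0.09, adjusted p = 0.000106). Mvd, the decarboxylase that makes isopentenyl diphosphate, gave 125 and 113 in the PPT arrays, against 335 and 339.9 in the oil arrays (-1.39 ± 0.11, adjusted p = 2.48e-05). The groups did not overlap for either gene, and Mvd had the largest change of the list. Pmvk, phosphomevalonate kinase, changed by -0.86 ± 0.13, Idi1, the isomerase, by -0.91 ± 0.10 and Fdps, the farnesyl diphosphate synthase, by -0.72 ± 0.10. Mvk, mevalonate kinase, and Ggps1, which leads to geranylgeranyl diphosphate, gave -0.19 and -0.11 and did not pass.

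The 11 tested genes of the sterol branch, which builds cholesterol out of squalene, held 8 that fell and 0 that rose, with a median of -0.56. Lss, the cyclase that closes the sterol rings, gave 173 and 157 in the PPT arrays, against 348 and 337 in the oil arrays (-0.99 ± 0.10, adjusted p = 0.000168). Fdft1, squalene synthase, gave 1167 and 1232 in the PPT arrays, against 2097 and 2098 in the oil arrays (-0.80 ± 0.09). Both PPT arrays were lower than every oil array of the series for these and the other 6 genes called. Of all probe sets that fell, 73.9% lay below the oil arrays of the other genotypes. Sqle, the squalene epoxidase, changed by -0.68 ± 0.10, Cyp51 by -0.81 ± 0.11, Hsd17b7 by -0.57 ± 0.09, Msmo1 by -0.56 ± 0.11, Sc5d by -0.53 ± 0.09 and Nsdhl by -0.38 ± 0.08. The other tested members, Dhcr7, which makes cholesterol itself, Ebp and Tm7sf2, gave -0.21 (adjusted p = 0.255), -0.05 and -0.40, none of which passed.

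The promoter of Hmgcs1 is shown because it was the only promoter among the called mevalonate and sterol genes that held a match to a sterol regulatory element, the site that SREBP factors bind. The sequence is the 250 bases before the start of the gene from RefSeq (GRCm38.p6, chr13:119690101-119690350, plus strand), with the match to TCACNCCAC, searched on both strands, in capitals.

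Hmgcs1 promoter: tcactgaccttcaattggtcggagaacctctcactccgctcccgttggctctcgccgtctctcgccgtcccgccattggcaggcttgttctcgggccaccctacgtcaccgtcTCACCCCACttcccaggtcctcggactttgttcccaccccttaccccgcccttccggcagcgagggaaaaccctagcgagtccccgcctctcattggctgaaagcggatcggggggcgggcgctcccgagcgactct

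The match begins 137 bases before the start. Among tested genes with a promoter sequence, 141 of 11084 (1.3%) held a match in such a window, and 1 of 4 called mevalonate genes and 0 of 6 called sterol branch genes did. A match is a run of letters and not a site shown to be bound.

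Fatty acid synthesis showed the same direction. Of 19 lipogenesis genes 12 fell and 0 rose, with a median of -0.52. Fasn, fatty acid synthase, gave 235 and 222 in the PPT arrays, against 535 and 502 in the oil arrays (-1.13 ± 0.10, adjusted p = 6.08e-05). Aacs, which turns acetoacetate into acetoacetyl-CoA for lipid synthesis, gave 79.0 and 107 in the PPT arrays, against 369.9 and 362 in the oil arrays, the largest change of the list (-1.82 ± 0.14, adjusted p = 2.22e-05). Thrsp, a lipogenic protein that responds to thyroid hormone and carbohydrate, gave 1829.9 and 1688 in the PPT arrays, against 3715 and 3789 in the oil arrays (-1.09 ± 0.10). All 12 genes called had both PPT arrays below the 4 oil arrays of the other genotypes, as did 73.9% of all probe sets that fell.

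Among enzymes that supply acetyl-CoA and NADPH, Acss2 changed by -0.91 ± 0.09, Acly by -0.73 ± 0.09 and Me1 by -0.70 ± 0.08. The acetyl-CoA carboxylase genes were near the threshold, with Acaca at -0.38 ± 0.09 (adjusted p = 0.0454) and Acacb at -0.52 ± 0.12 (adjusted p = 0.0286). The elongase genes Elovl5 and Elovl6 changed by -0.78 ± 0.09 and -0.73 ± 0.09, and Gpam, which starts glycerolipid synthesis, by -0.57 ± 0.08. The desaturase genes Scd1, Fads1 and Fads2 gave -0.26, -0.25 and -0.29 and none passed. Angptl8, a secreted regulator of lipoprotein lipase that feeding induces, gave 418 and 447 in the PPT arrays, against 1555 and 1575 in the oil arrays (-1.82 ± 0.11, adjusted p = 4.58e-06).

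Of 19 genes of lipid uptake and droplets tested, 2 rose and 2 fell, with a median of -0.08. Plin2, the main coat protein of hepatocyte lipid droplets, rose by 0.37 (adjusted p = 0.0263) with 2935 and 3022 in the PPT arrays, against 2305 and 2311 in the oil arrays. Lpin2, a phosphatidate phosphatase, rose by 0.34. In both genes the MOER oil arrays lay below the 4 other oil arrays, and the PPT arrays of Lpin2 still did. Cd36, a fatty acid transporter, and Fitm1, a droplet protein, fell by 0.35 and 0.72. Each of these 4 calls was lost under some of 23 alternatives, 14 for Plin2, 16 for Lpin2, 16 for Cd36 and 4 for Fitm1, the last only when a MOER array was left out, and none changed sign. The lipase gene Pnpla2 and the triglyceride synthesis gene Dgat2 gave 0.33 and -0.22 and did not pass.

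The falls in lipid synthesis were set against those in the other genotypes, which share no array with MOER. In ERKO liver, Srebf1 changed by -0.94 and Fasn by -0.99 with PPT, and the differences MOER minus ERKO, -0.10 ± 0.17 and -0.13 ± 0.14, did not pass (adjusted p = 0.776 and 0.604). Of 7 mevalonate genes tested, 5 were lower and 0 higher in the MOER response than in the ERKO response, with Mvd at -1.14 ± 0.15 (adjusted p = 0.00104) and Idi1 at -0.99 ± 0.14 (adjusted p = 0.00152). In the sterol branch 2 of 11 and in lipogenesis 4 of 19 were lower, and 0 and 1 higher. Over all 13987 genes, 5.08% were lower and 6.53% higher in MOER minus ERKO.

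In the sterol branch the MOER falls were smaller than those of wild type. In MOER minus wild type, 9 of 11 sterol branch genes were higher and 0 lower, where over all genes 12.7% were higher and 11.2% lower. The counts of this difference depend on scaling, as given below. Nsdhl changed by -0.38 in MOER and -2.09 in wild type, and Insig1 by -0.61 and -1.68. Hmgcs1 and Thrsp went the other way, with -0.92 and -1.09 in MOER and 0.18 and 1.47 in wild type (difference -1.10 ± 0.12, adjusted p = 9.93e-05, and -2.55 ± 0.14, adjusted p = 6.32e-07). The wild type change of Hmgcs1 did not pass (adjusted p = 0.15).

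**Figure D2:**
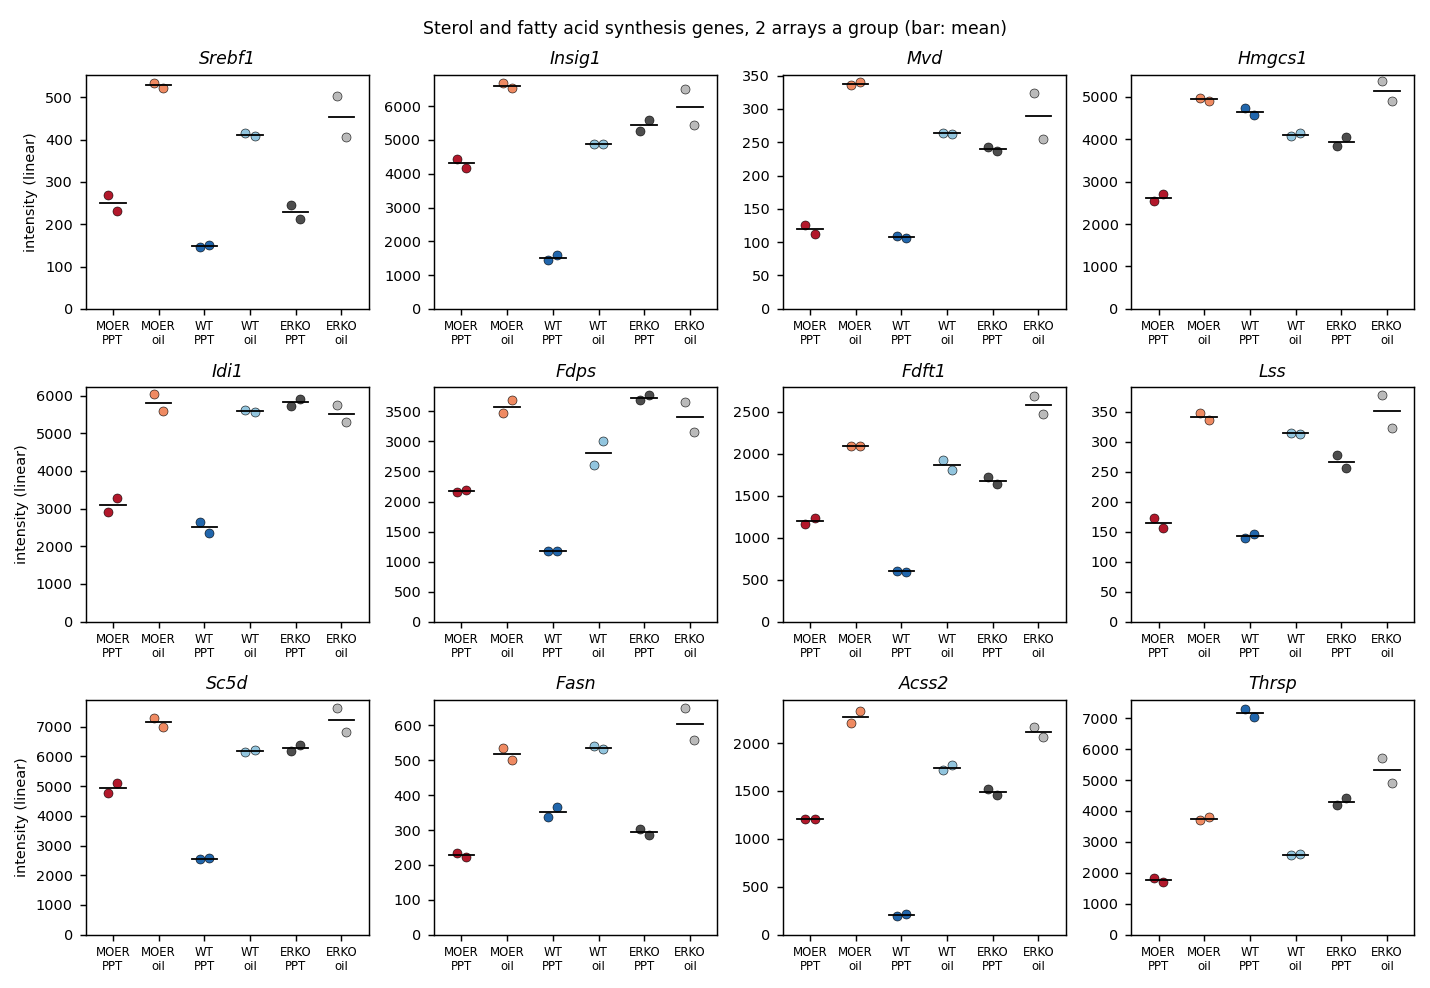
Intensity (vertical axis, linear, starting at 0) of 12 sterol and fatty acid synthesis genes in each of the 12 arrays. Each point is 1 array, the bar is the mean of 2, and the groups run MOER PPT, MOER oil, WT PPT, WT oil, ERKO PPT and ERKO oil. The 2 MOER PPT arrays lie below both MOER oil arrays in every panel, while Hmgcs1 and Thrsp in wild type are not lower with PPT.

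Bile acid synthesis fell in part in MOER, and its first enzyme fell less than in wild type. Of 20 tested, 0 rose and 5 fell, with a median of -0.07. Cyp7a1, the hydroxylase that starts the classical route and limits its rate, gave 1336 and 1439 in the PPT arrays, against 3287 and 3123 in the oil arrays, a change of -1.20 ± 0.09 (adjusted p = 1.40e-05). Cyp8b1, which sets the share of cholic acid, gave 273 and 256 in the PPT arrays, against 571 and 506 in the oil arrays (-0.98 ± 0.10). The Cyp7a1 change in wild type was -6.11 and in ERKO -1.10. MOER minus wild type was thus 4.91 ± 0.12 (adjusted p = 5.26e-09) and MOER minus ERKO -0.10 ± 0.12 (adjusted p = 0.653). Nr0b2, the nuclear receptor SHP that represses Cyp7a1, also fell, with 286 and 229 in the PPT arrays, against 775 and 679.7 in the oil arrays (-1.45 ± 0.15, adjusted p = 0.000243), whereas in wild type it changed by 1.12. Slco1a1, an uptake transporter of organic anions, gave 53.5 and 78.2 in the PPT arrays, against 423 and 343 in the oil arrays (-2.29 ± 0.15, adjusted p = 6.12e-06). Its PPT arrays stood below every oil array, and in ERKO PPT changed it by 3.31. Akr1d1, a reductase of bile acid and steroid synthesis, changed by -0.63 ± 0.08. The exporters Abcb11 and Abcb4 and the receptor gene Nr1h4 gave -0.04, 0.19 and -0.07 and did not pass.

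Peroxisomal and microsomal genes of fatty acid oxidation fell. Of 22 genes in the list 2 rose and 7 fell, and the 7 that fell were peroxisomal or microsomal enzymes and acyl-CoA thioesterases. Cyp4a10, a fatty acid omega-hydroxylase and PPAR-alpha target, gave 1277 and 1295 in the PPT arrays, against 4965 and 4587 in the oil arrays (-1.88 ± 0.09, adjusted p = 3.15e-07). Acot3, a peroxisomal thioesterase, gave 60.4 and 82.6 in the PPT arrays, against 413 and 358 in the oil arrays (-2.21 ± 0.15). Ehhadh and Acaa1b, enzymes of peroxisomal beta-oxidation, changed by -0.78 ± 0.09 and -1.29 ± 0.11, and Cyp4a14 by -0.92 ± 0.08. Acot1 was dim with PPT and fell at least 2.6-fold (adjusted p = 0.000118), and Acot4 changed by -0.87 ± 0.13. The 2 that rose were Cpt1a, which admits fatty acids to mitochondria (0.56 ± 0.09), and Angptl4, an inhibitor of lipoprotein lipase. Angptl4 gave 499 and 488 in the PPT arrays, against 166 and 158 in the oil arrays (1.52 ± 0.17, adjusted p = 0.000284). Its MOER oil arrays lay below the range of the other oil arrays, 221 to 422, as did those of Cpt1a. Mitochondrial Acadm, Acadl, Hadha, Hadhb and Cpt2 gave between -0.10 and 0.02 and did not pass. Of the genes called in this list, 6 went the same way in ERKO and 1 the opposite way, and in wild type 6 and 3 did. In ERKO 16 of the 22 fell and 1 rose, where over all genes 9.48% fell and 7.44% rose. Ehhadh was among those opposite in wild type, where it rose by 2.40, and the difference was -3.18 ± 0.13 (adjusted p = 9.45e-08).

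Some gluconeogenic and insulin-regulated genes rose. Of 15 tested, 5 rose and 0 fell, with a median of 0.17. Pck1, phosphoenolpyruvate carboxykinase, gave 5211 and 5729 in the PPT arrays, against 2089 and 2176 in the oil arrays (1.35 ± 0.10, adjusted p = 1.90e-05), and Pcx, pyruvate carboxylase, gave 911 and 894 in the PPT arrays, against 578 and 553 in the oil arrays (0.66 ± 0.10). Igfbp1, a binding protein that insulin represses, changed by 0.87 ± 0.13, Insr, the insulin receptor gene, by 0.49 ± 0.09 and Foxo1, a factor that insulin inactivates, by 0.45 ± 0.10. G6pc, Fbp1 and Tat gave -0.05, 0.11 and -0.06 and did not pass. In ERKO Pck1 changed by -0.58 and Pcx by -0.47, and the MOER responses were higher by 1.93 ± 0.15 (adjusted p = 1.24e-05) and 1.13 ± 0.14 (adjusted p = 0.000511).

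Of 15 glucocorticoid-responsive genes 4 rose and 1 fell. The metallothionein genes, whose products bind zinc and which glucocorticoids, metals and cytokines induce, were the largest. Mt1 gave 8073 and 8066 in the PPT arrays, against 3436 and 3371 in the oil arrays (1.24 ± 0.09, adjusted p = 1.61e-05) and Mt2 13178 and 13327 in the PPT arrays, against 7747 and 7402 in the oil arrays (0.81 ± 0.12). Klf9 and Zbtb16 changed by 0.46 ± 0.10 and 0.48 ± 0.12, and Dusp1, a phosphatase of MAP kinases, fell by 0.58. Fkbp5, Tsc22d3 and Per1, which glucocorticoids also induce, gave 0.06, 0.33 and 0.10 and did not pass. In wild type, Mt1 changed by -2.02, and MOER minus wild type was 3.27 ± 0.13 (adjusted p = 7.80e-08).

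Feedback genes of growth hormone signalling moved in both directions. Of 13 tested, 3 rose and 2 fell. In ERKO 4 of the called genes went the same way and 0 the opposite way, and in wild type 1 and 2 did. Over all genes called in MOER, 13.6% of the rises also rose and 33.7% of the falls also fell in ERKO. Bcl6, a repressor that growth hormone lowers, was dim under oil and rose at least 4.24-fold, with 248 and 261 in the PPT arrays, against 50.4 and 51.0 in the oil arrays (adjusted p = 1.97e-07). Socs2, a target of STAT5 that ends growth hormone signalling, gave 85.7 and 107 in the PPT arrays, against 315 and 288 in the oil arrays (-1.51 ± 0.12, adjusted p = 3.03e-05). Cish, another STAT5 target, was dim with PPT and fell at least 1.23-fold. Socs3, a feedback inhibitor of cytokine receptors, and Egfr rose by 0.74 and 0.64. Ghr, Igf1, Stat5a and Stat5b, the receptor, the main product and the signal carriers, gave -0.31, -0.32, 0.09 and 0.23 and did not pass.

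Genes that liver expresses more in 1 sex, which follow the pattern of growth hormone release, fell more often than they rose with PPT on both sides. Of 17 male-biased genes 1 rose and 8 fell, and of 16 female-biased genes 2 rose and 9 fell. In the female-biased list, A1bg, a plasma glycoprotein, gave 115 and 148 in the PPT arrays, against 852 and 802 in the oil arrays (-2.52 ± 0.12, adjusted p = 6.30e-07). Fmo2, a flavin monooxygenase, gave 362 and 395 in the PPT arrays, against 1074 and 1063 in the oil arrays (-1.46 ± 0.10), Hao2 changed by -1.20 ± 0.13 and Sult3a1 by -0.72 ± 0.13. For all 9 female-biased genes that fell, both PPT arrays were below the 4 oil arrays of the other genotypes. The same held for 73.9% of all probe sets that fell. In the male-biased list, Serpina12, the serpin vaspin, was dim with PPT and fell at least 3.32-fold, with 43.2 and 43.2 in the PPT arrays, against 199 and 202 in the oil arrays. Cyp4a12a and Cyp4a12b, near-identical genes whose probes may read each other, both fell. Cyp4a12a gave 753 and 792 in the PPT arrays, against 1434 and 1313 in the oil arrays (-0.82 ± 0.17). Cyp4a12b gave 571 and 576 in the PPT arrays, against 1189 and 952 in the oil arrays (-0.87 ± 0.12). The MOER arrays of both genes lay above the oil arrays of the other genotypes, where the range of Cyp4a12a was 13.9 to 525. Of the 8 male-biased genes that fell, 7 had MOER oil arrays above all other oil arrays, against 35.8% of all probe sets that fell. In ERKO, 10 of the 17 male-biased genes rose and 1 fell, and 8 were lower and 1 higher in MOER minus ERKO. Of the 16 female-biased genes 0 rose and 12 fell in ERKO, and 9 were higher and 1 lower in MOER minus ERKO. Of the female-biased genes called in MOER, 9 went the same way in ERKO and 2 the opposite way. Over all genes 7.44% rose and 9.48% fell in ERKO, and 6.53% were higher and 5.08% lower in MOER minus ERKO. The 2 female-biased genes that rose in MOER were Cyp17a1, described below, and Cyp39a1.

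Steroid-converting enzymes held 2 of the largest rises, and 2 of 16 genes of the list rose and 7 fell. Cyp17a1, the steroid hydroxylase and lyase of androgen synthesis, gave 2449.9 and 2552 in the PPT arrays, against 222 and 216 in the oil arrays (3.42 ± 0.10, adjusted p = 5.01e-09). The oil arrays of the other genotypes gave 902 to 1593, so MOER oil was below and MOER PPT above all of them. Sult1e1, the oestrogen sulfotransferase that inactivates oestrogens, gave 1089.7 and 1336 in the PPT arrays, against 133 and 109.9 in the oil arrays (3.16 ± 0.12, adjusted p = 1.05e-07). The other oil arrays gave 66.4 to 130.2, near the MOER oil arrays. In ERKO, Cyp17a1 fell by 0.48 and Sult1e1 gave -0.26 (adjusted p = 0.164), and the differences from ERKO were 3.90 ± 0.13 (adjusted p = 2.84e-08) and 3.42 ± 0.17 (adjusted p = 5.03e-07). The genes that fell included Hsd17b2, which oxidises oestradiol, at -0.45 ± 0.09, and Hsd17b6 and Hsd17b11 at -0.50 ± 0.09 and -0.44 ± 0.09. Hsd3b2 changed by -0.81 ± 0.20, close to the threshold (adjusted p = 0.0475), and Hsd3b5 was dim in both groups.

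Of 18 drug metabolism genes 1 rose and 6 fell. Cyp3a13 was the one that rose, with 3427 and 3729 in the PPT arrays, against 1135 and 1017 in the oil arrays (1.72 ± 0.09, adjusted p = 1.27e-06). Its MOER PPT arrays lay within the other oil arrays, 2932 to 3763, and its MOER oil arrays below them. Cyp2c55 gave 297 and 352 in the PPT arrays, against 986 and 805 in the oil arrays (-1.42 ± 0.13), and here MOER oil lay above the others, 333 to 508. Cyp2b9 and Cyp2b10, targets of the nuclear receptor CAR, changed by -0.63 ± 0.08 and -0.61 ± 0.09, and Cyp1a2 and Cyp2c29 by -0.40 ± 0.09 and -0.53 ± 0.12. Cyp3a11 and Cyp2e1 gave -0.26 and -0.0033 and did not pass, nor did Nr1i3 and Nr1i2, the genes of CAR and PXR (0.08 and 0.08).

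**Figure D3:**
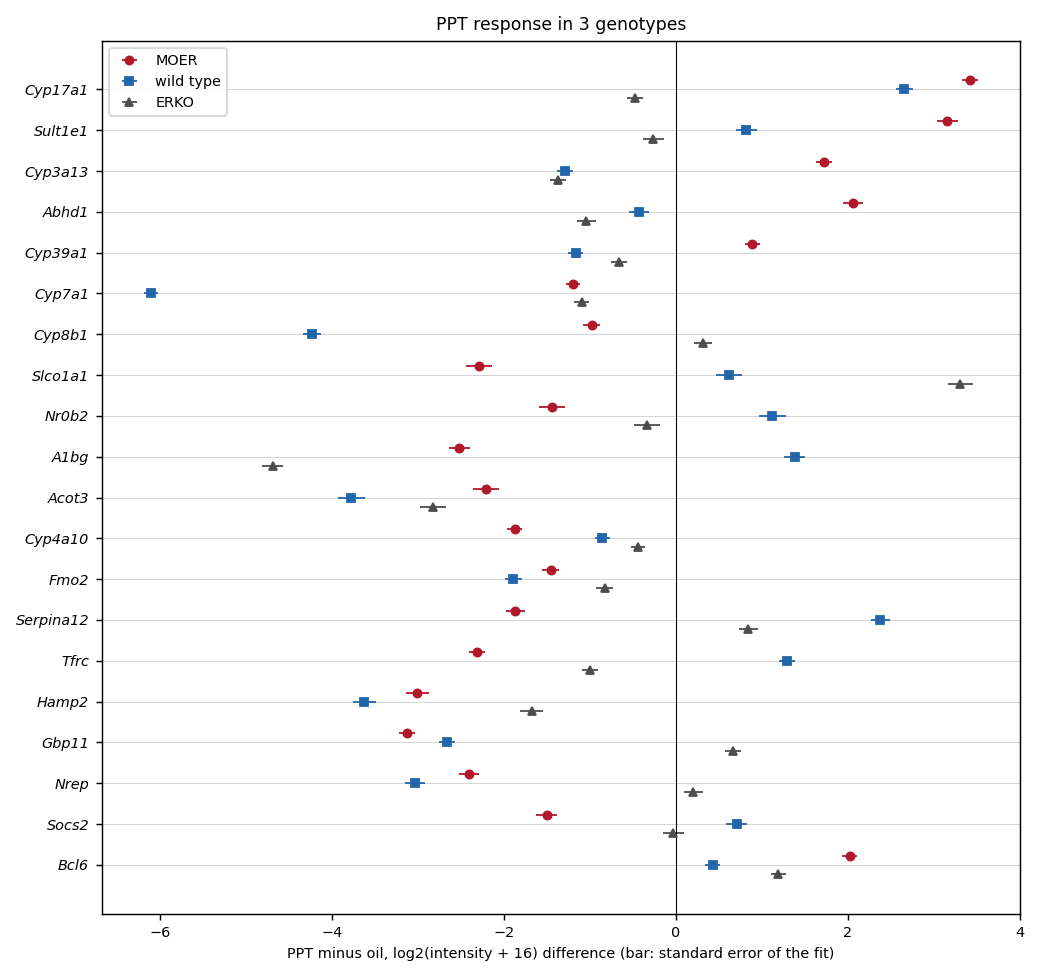
PPT response (horizontal axis, difference in log2(intensity + 16), PPT minus oil) of 20 genes in MOER (circles), wild type (squares) and ERKO (triangles), with the standard error of the fit as a bar. Values that rest on a dim group depend on the added 16. Cyp17a1 rose in MOER and wild type and not in ERKO, Cyp3a13 and Abhd1 rose in MOER and fell in the other genotypes, and Slco1a1 and Serpina12 fell in MOER and rose in the others.

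Genes of the inflammatory response were higher in MOER liver after PPT. Among 28 receptors and signal carriers of IL-6 and IL-1, 6 rose and 1 fell, with a median of 0.28. Stat3, the main factor downstream of IL-6, gave 638 and 686 in the PPT arrays, against 368 and 346 in the oil arrays (0.86 ± 0.09, adjusted p = 0.000287). Osmr, the oncostatin M receptor gene, gave 122 and 118 in the PPT arrays, against 65.4 and 53.3 in the oil arrays (0.86 ± 0.11), and Il6st, which encodes the shared receptor chain gp130, changed by 0.53 ± 0.09. Both PPT arrays of all 6 risen genes were above the oil arrays of the other genotypes, as were those of 76.2% of all probe sets that rose. Myd88 and Irak3, an adaptor and a brake of IL-1 and Toll-like receptors, changed by 0.56 ± 0.11 and 0.62 ± 0.15. Lifr, the receptor of leukaemia inhibitory factor, fell by 0.44 (adjusted p = 0.0114), against a rise of 2.67 in wild type (difference -3.11 ± 0.12, adjusted p = 4.99e-08). The cytokine genes Il1b and Tnf and the NF-kappaB genes Rela and Nfkbia gave 0.13, 0.26, 0.16 and 0.18 and did not pass.

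Of 16 chemokine genes 3 rose and 1 fell. Cxcl1, which attracts neutrophils, gave 1901 and 1864 in the PPT arrays, against 275 and 325 in the oil arrays (2.59 ± 0.11, adjusted p = 1.97e-07). Its wild type and ERKO responses were 0.51 and 0.34, with MOER higher by 2.08 ± 0.16 (adjusted p = 7.10e-06) and 2.25 ± 0.16 (adjusted p = 6.99e-06). Cxcl13, which attracts B cells, gave 862 and 1022 in the PPT arrays, against 187 and 194 in the oil arrays (2.21 ± 0.13), and Ccl6 1512 and 1548 in the PPT arrays, against 638 and 549 in the oil arrays (1.35 ± 0.12). Cxcl9, an interferon gamma target, fell by 0.97. Ccl2, Ccl5 and Cxcl10 gave -0.0006, 0.01 and -0.11 and did not pass.

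Of 27 acute phase genes 17 rose and 1 fell, with a median of 0.75, the largest share of risen genes of any list. Lcn2, lipocalin 2, which binds bacterial siderophores, gave 9934 and 9781 in the PPT arrays, against 2364 and 2289 in the oil arrays (2.08 ± 0.09, adjusted p = 1.97e-07). Serpina3n, a serine protease inhibitor, gave 8028 and 8457 in the PPT arrays, against 2595 and 2579 in the oil arrays (1.67 ± 0.08). Saa1 and Saa2, serum amyloid A genes of high sequence likeness, both rose. Saa1 gave 12277 and 11537 in the PPT arrays, against 5798 and 5220.2 in the oil arrays (1.11 ± 0.13). Saa2 gave 17202 and 16917 in the PPT arrays, against 11546 and 10533 in the oil arrays (0.63 ± 0.14). For all 17 risen genes both PPT arrays were above the 4 oil arrays of the other genotypes, as were those of 76.2% of all probe sets that rose. Steap4, Lrg1, Orm2 and Il1rn changed by 1.32 ± 0.08, 1.33 ± 0.10, 1.11 ± 0.12 and 1.06 ± 0.11. Itih3 and Itih4, which stabilise hyaluronan, changed by 0.97 ± 0.09 and 1.00 ± 0.08, Lbp, which carries bacterial lipopolysaccharide, by 0.82 ± 0.08 and Fga, fibrinogen alpha, by 0.92 ± 0.10. The other fibrinogen genes Fgb and Fgg gave 0.13 and 0.21, and Hp, Hpx, Crp and Apcs gave 0.50, 0.22, 0.23 and -0.09, none of which passed. In wild type 10 acute phase genes rose and 7 fell, where over all genes 15.2% rose and 17.9% fell. In ERKO 7 rose and 4 fell, where over all genes 7.44% rose and 9.48% fell. The MOER response was higher than the ERKO response in 12 of 27 genes and lower in 4, with Saa3 among the lower ones (-2.69 ± 0.13). In that difference 6.53% of all genes were higher and 5.08% lower.

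The promoters of 3 of these genes are shown for the letters that inflammatory factors are known to bind. Each is the 250 bases before the start of the gene, from RefSeq (GRCm38.p6), with the capitals marking a match on either strand. In Cxcl1 (chr5:90890995-90891244, plus strand) they mark GGANTTTCC, a core of NF-kappaB sites. In Lcn2 (chr2:32387740-32387989, minus strand) and Saa1 (chr7:46742981-46743230, minus strand) they mark TTGCNNAA, a core of C/EBP sites.

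Cxcl1 promoter: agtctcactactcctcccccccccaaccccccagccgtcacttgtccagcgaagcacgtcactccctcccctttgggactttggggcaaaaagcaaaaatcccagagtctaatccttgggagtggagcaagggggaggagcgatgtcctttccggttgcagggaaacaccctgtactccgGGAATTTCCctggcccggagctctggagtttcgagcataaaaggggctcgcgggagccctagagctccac
Lcn2 promoter: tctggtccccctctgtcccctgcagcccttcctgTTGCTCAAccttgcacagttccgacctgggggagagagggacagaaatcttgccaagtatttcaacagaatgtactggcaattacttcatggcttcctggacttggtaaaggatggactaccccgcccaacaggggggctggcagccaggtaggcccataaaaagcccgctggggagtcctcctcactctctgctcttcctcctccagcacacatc
Saa1 promoter: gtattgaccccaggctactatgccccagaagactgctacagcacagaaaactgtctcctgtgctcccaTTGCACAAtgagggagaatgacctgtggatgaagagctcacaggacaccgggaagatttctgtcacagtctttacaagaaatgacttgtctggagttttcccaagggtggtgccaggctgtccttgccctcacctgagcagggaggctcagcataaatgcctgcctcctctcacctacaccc

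The matches begin 70, 216 and 182 bases before the start in Cxcl1, Lcn2 and Saa1. A C/EBP core was found in 10 of 17 called acute phase genes with a promoter sequence (58.8%), Saa1, Saa2, Saa3, Saa4, Orm2, Orm3, Fga, Lcn2, Cp and Steap4. It was found in 12 of 22 tested members, called or not, and in 1053 of 11084 promoters of all tested genes (9.5%). Saa and Orm genes are clusters of near copies, so their promoters are not separate cases. The NF-kappaB core was found in 1 of 4 called chemokine genes, in 2 of 9 tested ones, called or not, and in 1.4% of all tested genes. In all 5 motifs were searched, and the NF-kappaB core was found in 0 of the 17 called acute phase genes. The C/EBP core was found in 17.9% of all genes called up and 13.4% of all called down. The STAT3 letters TTCCNGGAA were found in 2 of the 17 and the sterol regulatory element also in 2, each against 1.3% of all tested genes. The interferon-stimulated response element, GAAANNGAA, was found in 3 of 7 called interferon-induced genes (42.9%). It was found in 9 of 19 tested ones, called or not (47.4%), against 7.5% of all tested genes. The genes of the C/EBP factors, Cebpa and Cebpb, gave -0.08 and 0.40 and did not pass.

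**Figure D4:**
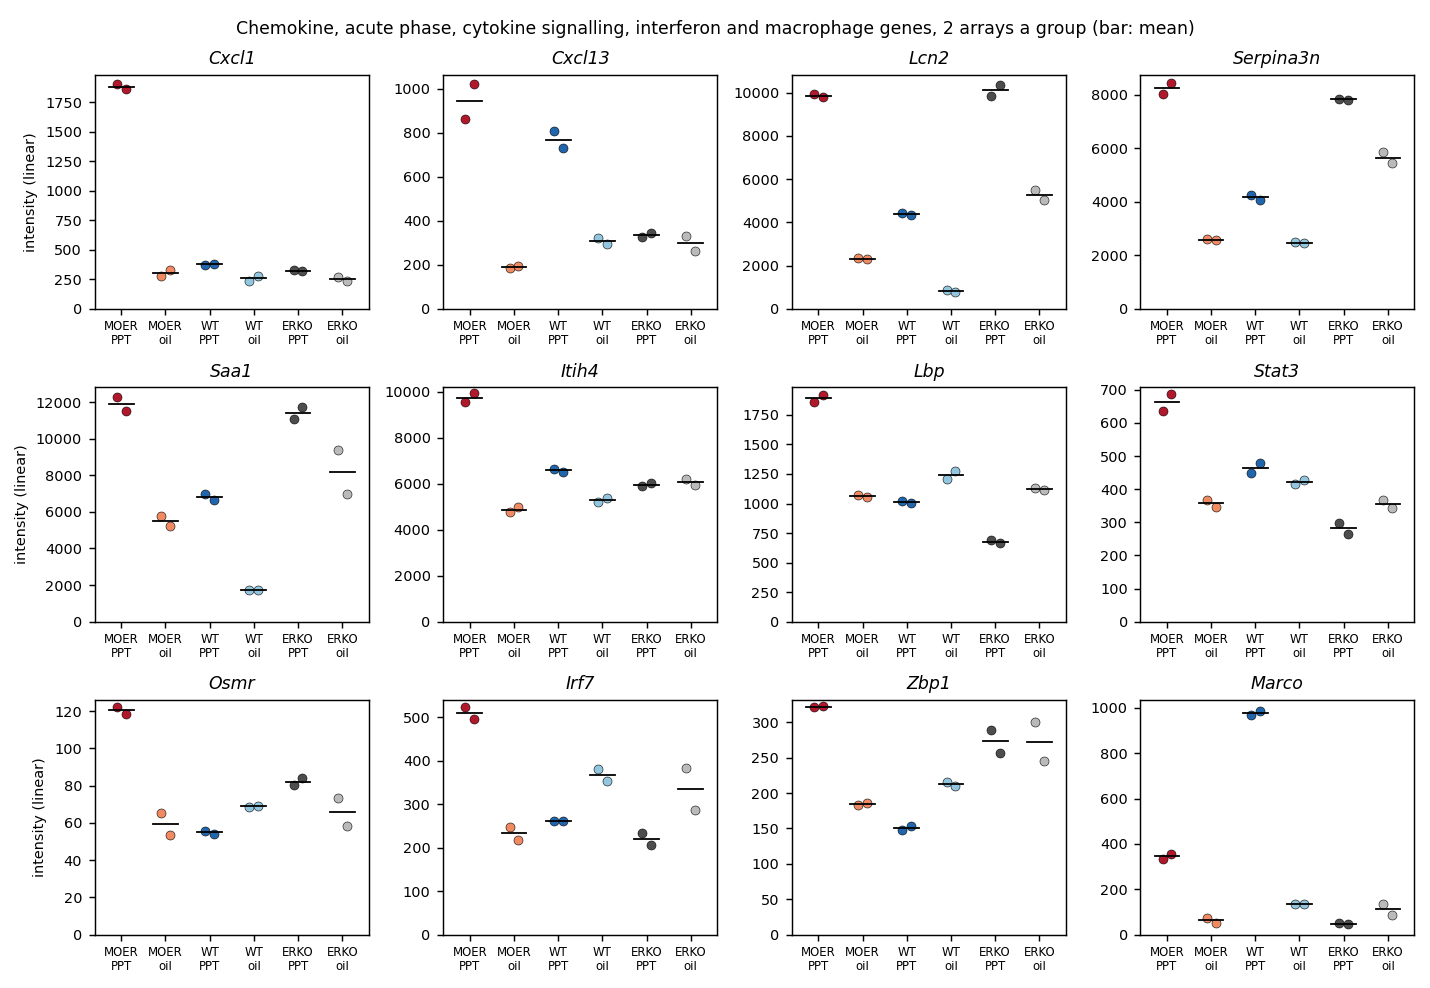
Intensity (vertical axis, linear, starting at 0) of 12 chemokine, acute phase, cytokine signalling, interferon and macrophage genes in each of the 12 arrays, with points for arrays and bars for the mean of 2. The groups run MOER PPT, MOER oil, WT PPT, WT oil, ERKO PPT and ERKO oil. In every panel both MOER PPT arrays lie above both MOER oil arrays, and Lcn2 and Saa1 are also higher with PPT than with oil in wild type and ERKO.

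Complement and coagulation genes, also products of hepatocytes, rose in part. Of 18 complement genes 6 rose and 1 fell. C4b, of the classical pathway, gave 1971 and 1948 in the PPT arrays, against 1284 and 1207 in the oil arrays (0.65 ± 0.10), and C8a and C8b, of the membrane attack complex, changed by 0.54 ± 0.08 and 0.52 ± 0.08. Mbl2, a mannose-binding lectin, fell by 0.47. Of 17 coagulation and fibrinolysis genes 4 rose and 0 fell, with F5, F11, Pros1 and Serpinf2 between 0.36 and 0.45. The secreted hepatocyte list held 1 gene of 16 that rose, Itih1 at 0.48 ± 0.09, and their median was 0.002, with Alb at -0.06 and Ttr at -0.12.

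Of 24 interferon-induced genes 10 rose and 0 fell, with a median of 0.41. Irf7, the factor that amplifies type I interferon, gave 523 and 497 in the PPT arrays, against 248 and 218 in the oil arrays (1.08 ± 0.13, adjusted p = 0.000585), and Zbp1, a sensor of nucleic acids, gave 321 and 323 in the PPT arrays, against 183 and 187 in the oil arrays (0.75 ± 0.11). Usp18, Irf9, Ifit1, Oasl2, Mx2 and Ifit3 changed by 0.75 ± 0.15, 0.70 ± 0.12, 0.65 ± 0.09, 0.64 ± 0.12, 0.62 ± 0.15 and 0.61 ± 0.12. In 8 of the 10 risen genes the MOER oil arrays lay below all 4 other oil arrays, and in 7 the PPT arrays lay above them. Over all probe sets that rose, these positions were held by 38.5% and 76.2%. Irf7 in the other oil arrays ranged 287 to 384, for example. In wild type 2 of these genes rose and 13 fell, where over all genes 15.2% rose and 17.9% fell. In MOER minus wild type 19 were higher and 0 lower, where over all genes 12.7% were higher and 11.2% lower. The counts of that difference depend on scaling, as given below. In MOER minus ERKO 15 were higher and 0 lower, where over all genes 6.53% were higher and 5.08% lower.

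MHC class II genes fell together. Of 6 antigen presentation genes 0 rose and 4 fell, with a median of -0.87. H2-Aa, a class II alpha chain, gave 553 and 574 in the PPT arrays, against 1120.1 and 1058 in the oil arrays (-0.93 ± 0.13, adjusted p = 0.00152), and Cd74, the invariant chain, gave 186 and 157 in the PPT arrays, against 335 and 316 in the oil arrays (-0.87 ± 0.15). H2-Ab1 and H2-Eb1 changed by -0.91 ± 0.13 and -0.88 ± 0.12, and B2m and Ciita, of class I and of class II control, gave -0.10 and 0.07 and did not pass. In wild type and ERKO H2-Aa changed by -0.62 and -0.65, and none of the 6 genes passed in either difference between genotypes by limma, and 0 did at an unadjusted p under 0.05. H2-Ea, described above for its level, fell by 1.09 with PPT in MOER.

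Markers of other liver cells were read as whole lists. In bulk liver, more cells of a type and more RNA per cell cannot be told apart. Of 15 Kupffer cell and macrophage genes 4 rose and 2 fell, and their summed intensity was 17319 and 17041 with PPT, against 14261 and 14058 with oil. Marco, a scavenger receptor for bacteria, gave 335 and 357 in the PPT arrays, against 73.0 and 51.9 in the oil arrays (2.22 ± 0.16, adjusted p = 1.58e-05). Lyz2 and Adgre1, the lysozyme and F4/80 genes, changed by 0.93 ± 0.09 and 0.55 ± 0.10, and Cd5l by 0.51 ± 0.08. Cd163, a receptor for haemoglobin, and Timd4, a receptor of resident Kupffer cells, fell by 1.38 and 0.75. Clec4f, Vsig4, Csf1r and Cd68 gave 0.19, -0.23, -0.04 and -0.06 and did not pass. Their part in the inflammatory rise was not tested.

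Of 9 neutrophil genes Prtn3, a granule protease, was the one called, at 356 and 301 in the PPT arrays, against 80.1 and 58.6 in the oil arrays (2.02 ± 0.20), while S100a8, S100a9 and Elane gave -0.11, -0.02 and -0.13. The lymphocyte (8 genes), sinusoidal endothelium (11), adipocyte (6), red cell precursor (4), skeletal muscle (12), squamous epithelium (5) and pancreatic islet (8) lists had 0 called by limma. At an unadjusted p under 0.05 the first 3 of these lists held 2 genes each and the other 4 held 0. The summed muscle intensity was 779 and 779 with PPT, against 779 and 751 with oil. In the stellate cell list Acta2, smooth muscle actin, rose by 0.75, in the bile duct list Krt19 rose at least 1.54-fold out of a dim oil group, and in the intestinal list Lgals4 rose by 0.85 and Fabp2 fell by 0.72. Of 9 hepatocyte lineage factors Onecut1 fell, with 93.5 and 83.5 in the PPT arrays, against 242 and 254 in the oil arrays (-1.34 ± 0.12, adjusted p = 5.38e-05), and Hnf4a gave -0.03. Of 11 pericentral genes 1 rose and 3 fell, and Glul, the defining pericentral enzyme, gave 0.11.

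Iron genes held 2 of the largest falls. Of 17 tested, 5 rose and 2 fell. Hamp2, a second hepcidin gene of the mouse, gave 1116 and 1366 in the PPT arrays, against 10809.7 and 9364 in the oil arrays (-3.01 ± 0.13, adjusted p = 2.86e-07), whereas Hamp, the gene of the iron hormone hepcidin, gave 6244 and 6609.5 in the PPT arrays, against 3830.4 and 3802 in the oil arrays and rose (0.75 ± 0.10, adjusted p = 0.000894). The 2 are close copies, and their probe sets went opposite ways. Tfrc, the transferrin receptor, gave 313 and 364 in the PPT arrays, against 1756 and 1743 in the oil arrays (-2.32 ± 0.09, adjusted p = 1.42e-07). Its MOER oil arrays were above and its PPT arrays below the other oil arrays, 540.2 to 1289. In wild type Tfrc changed by 1.29, and the difference was -3.61 ± 0.13 (adjusted p = 4.76e-08). Slc39a14, a zinc and iron importer that inflammation induces, and Hmox1, haem oxygenase, rose by 0.89 and 1.04, Tfr2 by 0.45 and Cp, ceruloplasmin, by 0.40.

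Of 18 unfolded protein response genes 3 rose and 1 fell, with a median of 0.09 against 1.08 in wild type, and Hspa5, the chaperone BiP, gave -0.11. Herpud1, of protein degradation in the endoplasmic reticulum, rose by 0.65. Of 14 ATF4 targets 0 rose and 3 fell, Atf4 itself by 0.57. Of 18 clock genes 4 rose and 2 fell. Dbp, an output of the clock, gave 499.6 and 436 in the PPT arrays, against 205 and 240.2 in the oil arrays (1.02 ± 0.11), and Arntl, the BMAL1 gene, which peaks at the opposite phase, gave 115 and 121 in the PPT arrays, against 221 and 207 in the oil arrays (-0.78 ± 0.08). Nr1d1 and Tef changed by 0.61 ± 0.10 and 0.62 ± 0.12 and Per1, Per2 and Cry2 gave 0.10, -0.004 and 0.15 without passing. The hour of sampling was not given in the sources used here, and a difference in hour between groups was not tested. Of 10 oestrogen-responsive genes Lifr was the one called.

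By size, the 20 largest rises and 20 largest falls outside the acinar genes were named, with both MOER groups apart and the brighter at 200 or above. Of the 20 rises, 19 had PPT arrays above all oil arrays of the other genotypes, and 10 had MOER oil arrays below them. Of the 20 falls, 19 had PPT arrays below and 9 had MOER oil arrays above the other oil arrays. Among the 92 probe sets that fell at least 2-fold, acinar genes included, the PPT arrays lay below the 4 other oil arrays in 56 (60.9%), and among the 77 that rose at least 2-fold they lay above in 66 (85.7%), against 14.2% and 15.7% of all 19119 probe sets. The MOER oil arrays lay above in 56 (60.9%) of the 92 and below in 34 (44.2%) of the 77, against 10.6% and 10.9% of all. Probe sets chosen for a gap between MOER PPT and oil are bound to hold more outlying values in these arrays, so nothing is read from these shares.

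Adh6-ps1, an alcohol dehydrogenase pseudogene by its symbol, had the largest rise, with 534 and 655 in the PPT arrays, against 5.78 and 5.69 in the oil arrays, at least 9.9-fold (adjusted p = 1.79e-09). The oil arrays of the other genotypes gave 351 to 479 and their PPT arrays 274 to 558. MOER oil was thus the only group of 6 in which it was dim. Reg3g, an antibacterial lectin, was dim under oil and gave 197 and 235 in the PPT arrays, against 9.22 and 5.56 in the oil arrays, at least 3.59-fold, with 3.55 to 11.3 in the other oil arrays. Reg3g was also high in ERKO PPT (754 and 744), and its relative Reg3b gave 389 and 386 with PPT, against 11.02 and 21.74 with oil. Adgrg7, an adhesion receptor, gave 281 and 274 in the PPT arrays, against 21.6 and 28.3 in the oil arrays, at least 4.62-fold, and did not differ with PPT in wild type or ERKO past the threshold (adjusted p = 0.367 and 0.915).

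Abhd1, a hydrolase gene, gave 537 and 475 in the PPT arrays, against 109 and 109 in the oil arrays (2.06 ± 0.12), and Dmbt1, a mucosal scavenger protein, 314 and 359 in the PPT arrays, against 81.3 and 75.8 in the oil arrays (1.90 ± 0.13). Crybb3, a crystallin gene, rose at least 4.03-fold, and rose in wild type (2.80) and ERKO (1.76) as well. Jchain, the joining chain of secreted antibody, Slc15a4, an endolysosomal transporter, and Mustn1 changed by 1.58 ± 0.11, 1.58 ± 0.18 and 1.38 ± 0.12. Among the falls, Gbp11, a guanylate-binding protein gene, gave 222 and 220.5 in the PPT arrays, against 2109 and 2026 in the oil arrays (-3.13 ± 0.09, adjusted p = 9.21e-09), with 459 to 598 in the other oil arrays. Gbp11 fell in wild type (-2.67) and rose in ERKO (0.66). Nrep gave 179 and 224 in the PPT arrays, against 1124 and 1141 in the oil arrays (-2.41 ± 0.11), and it fell in wild type (-3.04) and not in ERKO (0.20, adjusted p = 0.251). Car1, a carbonic anhydrase, Mme, the protease neprilysin, Clec2h and Cyp4a31 changed by -1.86 ± 0.11, -1.68 ± 0.10, -1.80 ± 0.17 and -2.22 ± 0.13. Eci3, a peroxisomal isomerase, changed by -1.63 ± 0.25 with 187 and 219 in the PPT arrays, against 784 and 554 in the oil arrays. Gm5409 gave 42.5 and 31.2 in the PPT arrays, against 239 and 165 in the oil arrays, and fell at least 3.34-fold.

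The array also holds probe sets for microRNA genes, which read the precursor or its host transcript and not the mature microRNA. Of 116 tested, 2 rose (1.72%) and 4 fell (3.45%), near the 2.52% and 2.4% over all genes, so the counts are no result about microRNA genes. They are named here after their values were seen, except Mir122, which the size rule names. Mir122, the main microRNA of hepatocytes, was dim with PPT and fell at least 5.45-fold, with 44.6 and 53.1 in the PPT arrays, against 354 and 306 in the oil arrays (adjusted p = 3.71e-07). The other oil arrays gave 267 to 339, and in wild type PPT raised it by 0.78. Mir15a gave 159 and 191 in the PPT arrays, against 303 and 298 in the oil arrays (-0.74 ± 0.10) and Mirlet7d 49.0 and 69.8 in the PPT arrays, against 143 and 129.8 in the oil arrays (-1.03 ± 0.14). Mir19a, the fourth called lower, was dim in both groups and has no fold. Mir23a and Mir199a-1 rose, with 173 and 173 in the PPT arrays, against 88.3 and 126 in the oil arrays for Mir23a (0.63 ± 0.16) and 111 and 116 in the PPT arrays, against 55.4 and 78.7 in the oil arrays for Mir199a-1 (0.65 ± 0.16). Both calls lay near the threshold and were lost in 16 of 23 alternatives for Mir23a and 15 of 22 for Mir199a-1, the fits on the 4 MOER arrays among them. The mature sequences of Mir15a, Mirlet7d, Mir23a and Mir199a-1 from RefSeq (GRCm38.p6) are shown with the seed, bases 2 to 8, in capitals.

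miR-15a-5p: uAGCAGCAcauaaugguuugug
miR-15a-3p: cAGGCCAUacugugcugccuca
let-7d-5p: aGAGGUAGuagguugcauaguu
let-7d-3p: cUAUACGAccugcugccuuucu
miR-23a-5p: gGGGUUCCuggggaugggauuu
miR-23a-3p: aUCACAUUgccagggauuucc
miR-199a-5p: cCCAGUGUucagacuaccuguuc
miR-199a-3p: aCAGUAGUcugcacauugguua

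No 2 of these arms share a seed.

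Across all genes, the MOER response was compared with the responses of the other genotypes, each in its own arrays. Of the 353 genes that rose in MOER, 116 also rose in wild type (32.9% of the MOER rises and 5.44% of the wild type rises) and 136 fell there. Of the 335 that fell in MOER, 177 also fell in wild type (52.8% and 7.08%) and 74 rose. In wild type 38.5% of the MOER rises fell and 22.1% of the MOER falls rose, against 17.9% that fell and 15.2% that rose over all genes tested. Set against ERKO, 48 of the MOER rises also rose (13.6% and 4.61%) and 100 fell, and 113 of the falls also fell (33.7% and 8.52%) and 37 rose. In ERKO 28.3% of the MOER rises fell and 11% of the MOER falls rose, against 9.48% that fell and 7.44% that rose over all genes tested. Per the labels, the study looked for genes changed in wild type and MOER and not in ERKO. Of the 116 shared rises 61 were not called in ERKO, and 44 of these also passed in MOER minus ERKO. Of the 177 shared falls 75 were not called in ERKO, and 49 of these passed in MOER minus ERKO. Over all genes, 2367 of 13987 were called in ERKO, a smaller share than among the shared rises or the shared falls. In MOER minus ERKO 6.53% of all genes were higher and 5.08% lower. The 44 and 49 were drawn from genes already called in MOER, so they are no separate test.

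In MOER minus wild type, 1775 genes were higher and 1571 lower, and in MOER minus ERKO 914 were higher and 711 lower. In probe sets the MOER minus wild type counts were 2117 higher and 2007 lower, against 875 and 7313 after each array was centred on the secreted hepatocyte proteins, which set the median of all probe sets at -0.46. The MOER minus ERKO counts were 1125 and 1068, against 748 and 1179 after that centring. The genes of smallest p in MOER minus wild type were mostly genes that PPT changed in wild type and that were not called in MOER or changed less there. Slc34a2, a phosphate transporter, gave 19.9 and 32.9 in MOER PPT and 22.8 and 33.0 in MOER oil arrays, against 8669 and 8332 in wild type PPT and 22.8 and 25.9 in wild type oil. Corin, a protease that activates natriuretic peptide, Akr1c18, which inactivates progesterone, and Trex2, an exonuclease, were likewise not called in MOER (adjusted p = 0.678, 0.0563 and 0.997). Raet1d, a stress ligand of the receptor NKG2D, rose in MOER by 0.53 and changed by -3.20 in wild type, and St6gal1, a sialyltransferase, by 0.50 and -2.56. Of the genes of smallest p in MOER minus ERKO, those lower in MOER were mostly skeletal muscle genes such as Tnnc2, Myh1 and Ttn, which gave -0.10, -0.19 and 0.04 in MOER and 6.16, 4.97 and 3.82 in ERKO. The summed muscle list gave 18092 and 17224 in the ERKO PPT arrays, against 608 and 654 in ERKO oil. Those higher in MOER were liver genes, with Noct, a clock output gene, at 3.15 ± 0.15 and Dbp at 2.46 ± 0.16, beside Cyp17a1, Sult1e1, Cyp3a13 and Abhd1.

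The pancreatic acinar genes are given apart because, as a summed list, they were high in the MOER oil arrays alone. Acinar cells make the digestive enzymes of the pancreas, and liver is not known to make them at such levels. Of 32 members with a probe set, 26 were tested, of which 1 rose with PPT and 18 fell, with a median of -2.28. Some of the 26, such as Cpb1, Cel, Ctrl and Rnase1, passed the filter only through the MOER oil arrays. For such members being tested already meant being high there, so these counts and the median are descriptive and test nothing. The summed intensity of the 32 was 2356 and 2249 in MOER PPT, against 55869 and 45154 in MOER oil and 1436 to 4633 in the 8 wild type and ERKO arrays. In 21 members both MOER oil arrays lay above those 8, and in 13 their mean was at least 4 times the highest of the 8. In 25 of the 32 both MOER PPT arrays lay within the range of the 8, and in 2, Reg1 and Erp27, both lay above it. Reg1, dim with PPT, gave 46.0 and 43.1 with PPT, against 268 and 234 with oil and 1.72 to 11.9 in the 8.

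Among the proteases, Try4, a trypsinogen, gave 86.6 and 74.3 with PPT, against 25170.4 and 16725 with oil and 43.4 to 91.6 in the other 8 arrays. Cpb1 and Cpa1, carboxypeptidases, gave 12.6 and 19.3 with PPT, against 13211 and 12058 with oil for Cpb1, and 41.6 and 35.2 with PPT, against 2458 and 2467 with oil for Cpa1. Ctrl, a chymotrypsin-like enzyme, gave 45.9 and 41.2 with PPT, against 3878 and 3851 with oil. Among the lipases and nucleases, Cel, carboxyl ester lipase, gave 21.7 and 19.4 with PPT, against 869 and 779 with oil, and Rnase1, the pancreatic ribonuclease, gave 41.5 and 40.5 with PPT, against 2983 and 2849 with oil. In 11 of the 13 strongest members oil replicate 1 was above replicate 2, and the ratio of the 2 arrays was 1.5 for Try4 and 1.01 for Ctrl. Amylase probe sets, which name several gene symbols, gave 2014 and 2265 with PPT, against 3880 and 3780 with oil for the dimmer ones, whose values are identical. The transcription factor genes Ptf1a and Bhlha15 and the secretory protein gene Erp27 did not share the pattern, with 139.7 and 116 with PPT, against 113 and 136 with oil for Ptf1a. Reg3b, which inflammation also induces, was the member that rose.

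The sums of the pancreatic islet list were 765 and 695 with PPT, against 732 and 757 with oil. By a 4-fold measure against the highest oil array of the other genotypes, 2 genes outside the list stood out among those that fell. Unlike for the list members, the PPT arrays of the other genotypes were left out of this measure. One was 2210010C04Rik, lower at least 171-fold, with 37.0 and 27.4 in the PPT arrays, against 10148 and 10563 in the oil arrays and 15.9 to 33.0 in the other oil arrays. The other was H2-Ea, which unlike the acinar genes stayed high with PPT. The part of acinar RNA in the change of any liver gene was not tested, and the secreted hepatocyte proteins, Alb included, gave a median change of 0.002.

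**Figure D5:**
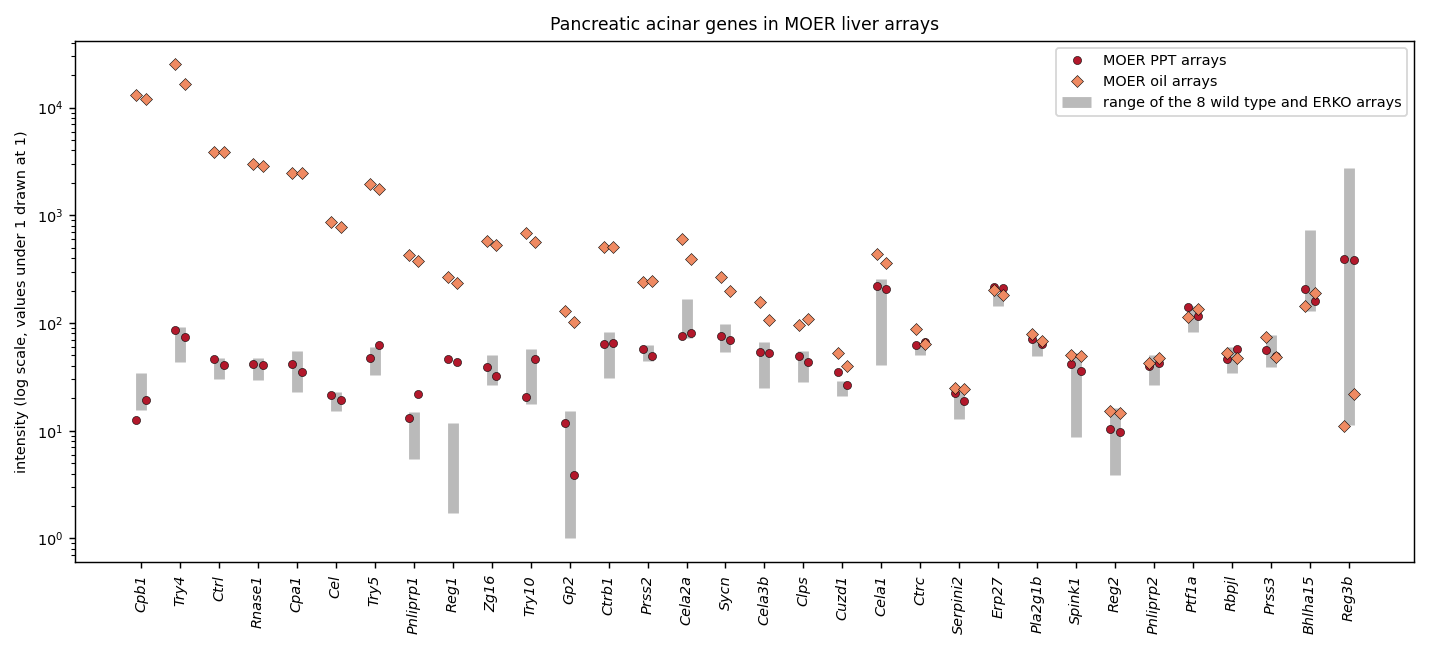
Intensity (vertical axis, log scale) of the 32 pancreatic acinar genes with a probe set (horizontal axis, ordered by the MOER oil mean over the highest wild type or ERKO array). Circles are the 2 MOER PPT arrays, diamonds the 2 MOER oil arrays and grey bars the range of the 8 wild type and ERKO arrays. On the left the diamonds stand far above the grey bars while the circles lie mostly inside them, and on the right the groups overlap.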

How the data were processed

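Whole liver RNA was hybridised to 12 Affymetrix Mouse Gene 1.0 ST arrays, 2 for each of 6 groups. Per the labels' protocols, each array carried pooled RNA of 3 animals, and the authors tested with Cyber-T at 99.99% confidence and a 2-fold minimum. The deposited values are intensities on a linear scale for 28815 probe sets. How probes were summarised and normalised was not given in the sources used here. The array medians lay between 77.5 and 85.26, so no further scaling was applied, and the number of arrays limits the precision.

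Intensities were taken as log2(intensity + 16). The 19119 probe sets that exceeded the array's 40th percentile in at least 2 of 12 arrays were fitted with limma 3.58.1 in R 4.3.3 as 6 group means over all arrays, with 6 residual degrees of freedom, 10.47 after moderation. Calls used Benjamini-Hochberg adjusted p under 0.05. Differences between responses were tested as interactions in the same fit. An exact permutation test of 2 arrays against 2 cannot go below 0.333, so none is given. Probe sets with 1 gene symbol were taken as genes, the brightest that passed for each.

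Named were list members of smallest p or needed for the order of a pathway, the 20 largest rises and 20 largest falls with the brighter group at 200 or above, and the 10 genes of smallest p on each side of each difference. The members and lists were chosen with earlier results of these data known. Alternatives were the added constant (1 or 64), the filter (none, or the 60th percentile), normalization, an intensity trend, the MOER arrays alone, the replicate block and leaving out each array. Paralogs (Saa, Orm, Cyp2b, Cyp4a, trypsinogens) may cross-hybridise and are uncertain. Promoter and microRNA sequences are RefSeq's for GRCm38.p6.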

Additional observations from a re-analysis of the deposited data

Results flagged for a closer look

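The results here are differences between the MOER response and the response of another genotype, each tested as an interaction in limma, and given as log2 differences. In MOER minus wild type 1775 genes were higher and 1571 lower. Those of smallest p among the higher ones were Adh6-ps1 by 5.49, Cyp7a1 by 4.91, Raet1d by 3.72, Nat8f1 by 3.44, Mt1 by 3.27, Cyp8b1 by 3.25, Cyp2b10 by 3.17, Nox4 by 3.12, St6gal1 by 3.06 and Cyp3a13 by 3.02. Among the lower ones they were Slc34a2 by -7.78, Akr1c18 by -5.67, Trex2 by -5.12, Corin by -4.95, Myo15b by -4.53, Serpina12 by -4.25, Creb3l4 by -4.05, Ptgds by -3.87, Tfrc by -3.61 and Atp13a5 by -3.50. Of these 10 lower genes, Serpina12 and Tfrc fell in MOER and rose in wild type, and the other 8 rose in wild type and were not called in MOER.

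In MOER minus ERKO 914 genes were higher and 711 lower. Those of smallest p among the higher ones were Adh6-ps1 by 4.30, Cyp17a1 by 3.90, Sult1e1 by 3.42, Noct by 3.15, Cyp3a13 by 3.10, Abhd1 by 3.10, Cyp2b13 by 3.08, Dbp by 2.46, Cyp2b9 by 1.79 and Steap4 by 1.75. Among the lower ones they were Serpinb3a by -7.42, Smpx by -7.15, Tnnc2 by -6.26, Scgb1a1 by -5.82, Cox8b by -5.49, Myh1 by -5.17, Tnni2 by -4.05, Gbp11 by -3.79, Ttn by -3.78 and Casq2 by -3.78. Apart from Gbp11, which fell in MOER, none of these lower genes was called in MOER by limma, and all of them rose in ERKO. Where a group is dim for a gene, the size of its difference depends on the added 16. The outlier test for single arrays needs groups larger than 2 and was not applied.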

How the results depend on the processing

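PPT in MOER called 449 probe sets higher and 441 lower. The counts were 768 and 703 after quantile normalization, and 677 higher and 648 lower after median centring. A Cyber-T-style test at the labels' threshold called 78 higher and 92 lower. MOER minus wild type, 2117 higher and 2007 lower, gave 875 and 7313 after centring on the secreted hepatocyte proteins. MOER minus ERKO, 1125 higher and 1068 lower, gave 2021 higher after quantile normalization, 1838 after median centring and 748 after centring on the secreted hepatocyte proteins, and 1625 lower with an intensity trend. The cause of these shifts was not tested. Leaving out 1 array at a time gave 195 to 846 higher and 209 to 826 lower in MOER, 1521 to 2826 and 1349 to 2781 in MOER minus wild type, and 560 to 2204 and 482 to 3265 in MOER minus ERKO. The MOER counts were lowest without MOER arrays and highest without an ERKO oil array, which leaves fewer arrays and another estimate of the spread. With the replicate number as a block, 451 were higher and 432 lower in MOER. The labels do not say that numbers pair arrays, and the deviations of equal numbers correlated at -0.147 between MOER PPT and MOER oil, at 0.354 between MOER oil and WT oil, 0.377 between MOER oil and ERKO oil and 0.276 between WT oil and ERKO oil, and at -0.112 to 0.127 in the other 11 pairs of groups. The crossed pairing, chosen after seeing the data and fitted on the 4 MOER arrays, called 387 higher and 420 lower.

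The alternatives were read for 248 of the named genes, and not for others such as F11, Serpinf2, Cyp39a1, Mir19a and the acinar enzyme genes. Of the 248, 175 were called, and 122 of these were called under every alternative that gave them a value. None of the 175 changed sign. Of the 53 that lost the call, 25 lost it only when 1 MOER array was left out, namely Acta2, Adgre1, Atf4, Cd5l, Cd74, Dusp1, Eci3, Fitm1, Herpud1, Hmox1, Hsd17b6, Ifit3, Il6st, Insig1, Insr, Irf9, Itih1, Msmo1, Myd88, Oasl2, Sc5d, St6gal1, Sult3a1, Tef and Usp18. The other 28, near the threshold, were Acaca, Acacb, Cd36, Cp, Cyp1a2, Cyp2c29, Cyp4a12a, F5, Foxo1, Hsd17b11, Hsd17b2, Hsd3b2, Irak3, Klf9, Krt19, Lifr, Lpin2, Mbl2, Mir199a-1, Mir23a, Mx2, Nsdhl, Plin2, Pros1, Saa2, Tfr2, Timd4 and Zbtb16.

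Genes not called, near 0, changed sign under some alternatives, and none of these has a stated direction. After centring on the secreted hepatocyte proteins, Abcb11 gave 0.0142, Ccl2 gave 0.0508, Csf1r gave 0.0164, Cyp2e1 gave 0.0481, Esr1 gave 0.0215, Hnf4a gave 0.0173, Per2 gave 0.0475, S100a9 gave 0.0279 and Trex2 gave 0.0487. After quantile normalization, Alb gave 0.0142, Cyp2e1 gave 0.0674, G6pc gave 0.0036 and Tat gave 3e-04. With log2(intensity + 1), Ccl2 gave 5e-04. After median centring, Ccl2 gave 0.0064, Cyp2e1 gave 0.0037, Per2 gave 0.003 and Trex2 gave 0.0042. With 1 array left out, the changes ranged -0.0324 to 0.0617 for Acadl, -0.1301 to 0.1288 for Ccl2, -0.1475 to 0.161 for Ccl5, -0.1427 to 0.0253 for Cd68, -0.0126 to 0.1582 for Ciita, -0.0696 to 0.1085 for Cpt2, -0.0207 to 0.3257 for Cry2, -0.0803 to 0.0102 for Csf1r, -0.0481 to 0.0414 for Cyp2e1, -0.1238 to 0.0193 for Ebp, -0.1029 to 0.0429 for Esr1, -0.0718 to 0.2006 for Fkbp5, -0.0107 to 0.0343 for Hadha, -0.1171 to 0.0487 for Hnf4a, -0.1122 to 0.1042 for Per2, -0.0113 to 0.3322 for Rela, -0.2743 to 0.0482 for S100a8, -0.1544 to 0.1073 for S100a9, -0.2787 to 0.1652 for Slc34a2, -0.1202 to 0.0049 for Tat, -0.0506 to 0.0451 for Trex2 and -2e-04 to 0.0862 for Ttn. With 2 pooled arrays a group, the number of arrays limits the precision, and a group whose probe set is dim has only a bound.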

Other observations

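A single amylase probe set, which names several gene symbols, was listed at 2173 and 2285 in MOER PPT arrays, against 1602759 and 1219897 in MOER oil arrays and 1309 to 2285 in the wild type and ERKO arrays. Its value lies far above any other on the array, and how the deposited table came to hold it was not given in the sources used here, so its size is not read as a level.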
